A study of Mus musculus with 18 samples.

Results

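DNMT1 carrying both the W465A and the W796A substitution was compared with wild-type DNMT1 for the DNA methylation it leaves in mouse embryonic stem (ES) cells. The members were the 3 W465A/W796A and the 3 WT libraries, 6 of the 18 samples in the series. Methylation was read at the CpGs with at least 5 reads in each of these 6 libraries, which were 2105931 of the 21867550 CpGs in the deposited table, or 9.63%. They fell into 239901 regions of 1 kb with at least 3 such CpGs. All cells were ES cells in which the endogenous Dnmt1 gene was knocked out, so both groups lack it. Each group then carried WT or W465A/W796A DNMT1 from a stably carried, puromycin-selected pPyCAGIP vector, whose CAG promoter drives the insert, and grew in serum and LIF on gelatin. The vector expresses DNMT1 outside its own locus, cells were selected with puromycin, and no DNMT1 protein level was used here. The assay was eRRBS, an enhanced form of reduced representation bisulfite sequencing, in which restriction fragments are bisulfite-treated so that unmethylated cytosines are read as thymine. The other 4 rescue groups (W796A, W465A, W464A/W465A and the triple mutant W464A/W465A/W796A) are used below only for reference, and knockout cells without DNMT1 were not analysed here. The 3 replicates per group are labelled as biological, but the labels do not say whether they are separate clones, pools or cultures of 1 line. P-values and SDs therefore measure only the spread between these libraries.

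DNMT1 is the maintenance methyltransferase, which copies CpG methylation to the new DNA strand after replication. The W465A change lies in its replication foci targeting sequence (RFTS) domain, which binds ubiquitinated histone H3 and connects the enzyme to UHRF1, the protein that marks hemimethylated DNA. The W796A change lies in the first bromo-adjacent homology (BAH1) domain, a reader of trimethylated lysine 20 on histone H4, a mark of constitutive heterochromatin. A region at the WT level in the double mutant is one where this enzyme left as much methylation as wild-type DNMT1, and a lower region is one where it left less.

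Stretches of 160 bases are printed for 2 regions that stayed lower and 2 that reached the WT level, because they show the sequence behind the measurements of both kinds, short runs with 5 or 6 measured CpGs each. They were read from the plus strand of GRCm38, with each measured CpG in capitals. The lower regions were chr10:43691041-43691200, the intergenic region nearest Cd24a, and chr2:45063354-45063513, in an intron of Zeb2. The regions at the WT level were chr12:86506321-86506480, in an exon of Esrrb, and chr6:140535572-140535731, in an intron of Plekha5.
Cd24a region: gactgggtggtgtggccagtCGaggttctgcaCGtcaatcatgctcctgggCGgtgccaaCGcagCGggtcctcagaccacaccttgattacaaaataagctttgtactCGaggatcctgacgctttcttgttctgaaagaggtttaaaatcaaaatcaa
Zeb2 region: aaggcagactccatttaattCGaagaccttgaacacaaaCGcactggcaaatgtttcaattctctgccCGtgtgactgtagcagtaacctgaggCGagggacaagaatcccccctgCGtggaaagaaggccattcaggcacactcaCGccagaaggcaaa
Esrrb region: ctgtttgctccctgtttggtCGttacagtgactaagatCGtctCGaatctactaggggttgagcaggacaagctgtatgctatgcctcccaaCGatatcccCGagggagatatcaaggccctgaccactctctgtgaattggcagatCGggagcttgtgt
Plekha5 region: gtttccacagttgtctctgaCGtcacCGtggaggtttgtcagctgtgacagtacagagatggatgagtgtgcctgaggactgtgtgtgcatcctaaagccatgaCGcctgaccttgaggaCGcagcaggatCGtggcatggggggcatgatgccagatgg

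The 6 libraries held 59776439 to 138978763 CpG calls, and the median coverage of the CpGs used was 11 to 24 reads. WT replicate 1 stood apart from the other WT libraries before any comparison was made. Its share of CpGs methylated above 80% was 19.4%, against 42.5% in WT replicate 2 and 38.8% in WT replicate 3. WT replicate 2 was the deepest library. Counts of calls depended on both, and the main counts are also given without them. The methylation table does not show the DNMT1 genotype of a library. Of 22 pluripotency genes, 14 had a measured promoter, and their median WT promoter level was 1.38%. No measure of bisulfite conversion was used.

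Methylation was lower in the double mutant than in WT across the genome, at 38.4% ± 3.11 against 53.1% ± 6.51 (SD, n = 3 each). The mean CpG level was 45.8%, 58.1% and 55.6% in WT replicates 1 to 3 and 42.0%, 36.7% and 36.4% in W465A/W796A replicates 1 to 3. All 3 mutant libraries lay below all 3 WT libraries, and the closest pair was replicate 1 of each group. The difference of means was -14.7 points (exact two-sided permutation test, p = 0.1, the smallest value that 3 against 3 libraries allow). The double mutant thus held 72.2% ± 5.86 of the WT mean level, where this error and all later errors on a share of WT are the SD of the 3 mutant libraries and leave out the spread of WT. Without WT replicate 1 the difference was -18.4 points. The size in points depended on which CpGs were covered, being -9.07 at CpGs with 10 reads and -3.00 at CpGs with 20 reads in every library, where 56.6% and 89.3% of CpGs had over 20 CpGs within 250 bp. As a share of WT it was 73.0% and 71.7% there. For reference, the mean over the same CpGs was 52.8% ± 9.70 with W796A alone and 22.1% ± 4.91 with W465A alone (SD, n = 3 each).

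In the double mutant fewer CpGs were almost fully methylated and more were intermediate. CpGs above 80% made up 11.6%, 8.13% and 7.31% of the mutant libraries, below the 19.4% of the lowest WT library. CpGs between 20% and 80% made up 55.7%, 55.3% and 56.5%, against 48.0%, 29.7% and 30.9% in WT. CpGs under 20% made up 32.7%, 36.5% and 36.2%, against 32.6%, 27.9% and 30.3%. The same held for the 142274 regions of 1 kb with 30 reads in every library, where 4.33%, 1.97% and 1.56% of regions were above 80% in the mutant and 13.3%, 50.7% and 43.7% in WT. In pooled cells, fewer fully methylated cells and partial methylation in every cell cannot be told apart.

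**Figure D1:**
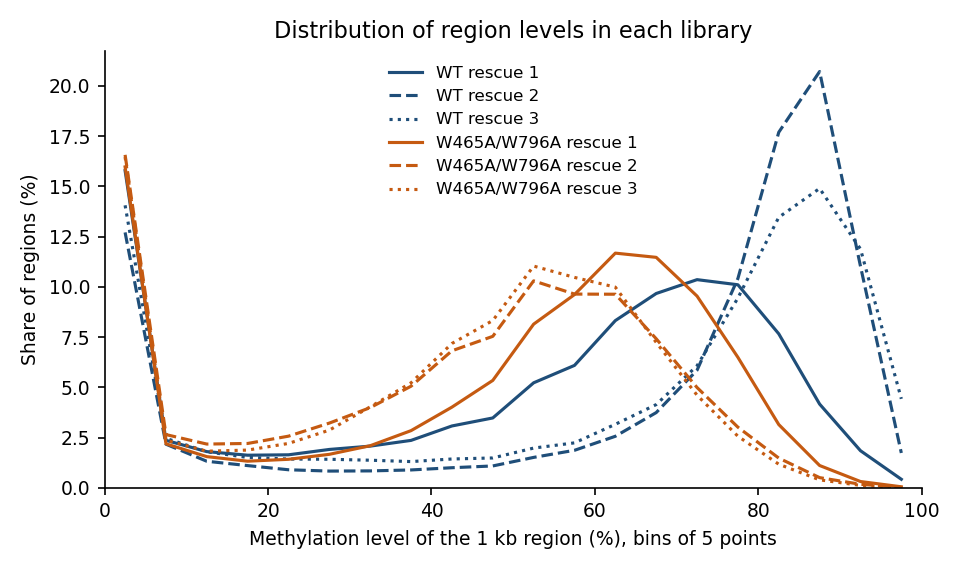
The share of 1 kb regions (vertical axis, %) is drawn in bins of 5 points of methylation level (horizontal axis, %), 1 line per library, for the regions with 30 reads in every library. In every library 12.7% to 16.6% of regions lie under 5%. This is the highest bin of WT replicate 1 and of the 3 mutant libraries. Among more methylated regions, WT replicates 2 and 3 peak between 85% and 90% and WT replicate 1 between 70% and 75%. W465A/W796A replicate 1 peaks there between 60% and 65%, and replicates 2 and 3 between 50% and 55%.

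Region by region, the double mutant left less methylation than WT far more often than it left as much. The methylated and unmethylated reads of each 1 kb region entered a quasi-binomial model of all 18 libraries. A call needed a Benjamini-Hochberg adjusted p under 0.05 and pooled levels at least 10 points apart. Of 239901 regions, 66299 fell (27.6%) and 2 rose (0.000834%). The pooled level was lower in the mutant in 96.4% of regions, with a median difference of -19.1 points, and in 56126 of the called regions no mutant library overlapped a WT library. These counts depended on single libraries: without WT replicate 2, 8 regions were called, without WT replicate 1, 114211, without WT replicate 3, 23792, and without W465A/W796A replicate 2 or 3, 16688 or 5401. At an unadjusted p under 0.05 there were 119829 regions, 119795 of them lower.

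When each library was divided by its own mean, no region passed the test. Of 213836 regions with a mean level of at least 10%, limma called 0 lower (0%) and 0 higher (0%) at an adjusted p under 0.05 and 1.5-fold, and 17808 had an unadjusted p under 0.05. The median log2 ratio of these relative levels was 0.03. On another scale some regions did stand out: with the library's global logit level as an offset in the quasi-binomial model, 5192 of 239901 regions were lower (2.16%) and 14 were higher (0.00584%) at an adjusted p under 0.05 and 10 points. Whether a single 1 kb region lost more than the library as a whole thus depended on the scale and the model.

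Among the 195260 regions with a pooled WT level of at least 50%, 9761 (4.999%) were at the WT level, meaning that the mutant mean was no more than 5 points under the WT mean and the libraries overlapped. A further 62734 (32.1%) were called lower, and 122765 (62.9%) were neither. The regions were sorted on these very levels, so their levels are a description and carry no test. Those at the WT level averaged 55.9%, 79.4% and 67.7% in WT and 70.9%, 64.5% and 65.2% in the mutant. WT replicate 1 was below all 3 mutant libraries in this set, and WT replicate 2 was above them. The regions called lower averaged 71.1%, 84.2% and 83.4% in WT and 55.2%, 49.1% and 48.1% in the mutant, with no overlap. Just inside the limit, 230 regions had a median difference of -4.95 points, and just outside it 201 regions had -5.05 points.

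The sets differed in where they lay and in how deeply they were read. Introns held 51.6% of the regions at the WT level and 41.0% of those called lower, against 46.1% of all regions with WT above 50%. Intergenic sequence held 34.8%, 46.7% and 41.6% in the same order. CpG density was close, with a median of 8.67, 8.50 and 8.20 CpGs within 250 bp. The median number of reads over the 6 libraries was 280 in regions at the WT level, 405 in regions called lower and 328 in all. Fewer reads make a call harder to reach, and the part of coverage in these shares was not tested. With W465A alone, the regions at the WT level had a median of 34.3% and those called lower 32.1%.

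Whether a region at the WT level stays there was measured in libraries that had no part in choosing it. Regions were chosen by the same rule from 2 replicate numbers and then measured in the mutant and WT library of the third number. Chosen without replicate 1, 4095 regions differed by a median of -2.20 points in replicate 1, against -5.68 points over all regions with WT above 50%. Chosen without replicate 2, 23137 regions differed by -26.8 points in replicate 2, against -27.6 over all. Chosen without replicate 3, 22350 regions differed by -23.5 points, against -26.7 over all. In the left-out libraries the chosen regions thus lay within 0.733 to 3.48 points of the rest of the genome. The share within 5 points of WT was 56.7% against 48.3% of all regions for replicate 1, 6.53% against 5.23% for replicate 2 and 13.4% against 9.21% for replicate 3.

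Individual regions show what these classes look like. The region chr10:43691001-43692000, nearest Cd24a (a surface glycoprotein gene) at 106736 bp, had 53.3%, 81.3% and 57.1% in WT and 10%, 0% and 12.5% in the mutant (adjusted p = 0.0112). The mutant libraries were far below the WT libraries, at the 7.41% ± 8.49 (SD, n = 3) of W465A alone. The region chr2:45063001-45064000, in an intron of Zeb2, which encodes a zinc finger repressor of epithelial genes, had 63.9%, 79.3% and 97.9% in WT and 27.8%, 14.7% and 27.8% in the mutant (adjusted p = 0.00697). An intronic region of Ephb1, an ephrin receptor gene, at chr9:102211001-102212000 had 67.3%, 79.5% and 82.2% in WT and 13.75%, 28.6% and 23.6% in the mutant (adjusted p = 0.00891). With W796A alone these 3 regions had 48.3% ± 30.2, 73.4% ± 22.2 and 70.1% ± 18.04 (SD, n = 3 each). The other regions with the largest falls were intergenic and at least 93.8% repeat-masked by CpG, nearest Btbd3 (87.2% ± 1.43 in WT and 37.4% ± 19.5 in the mutant), Polr3k (83.8% ± 8.52 and 27.8% ± 7.90) and Mindy3 (88.9% ± 8.40 and 33.9% ± 11.96; SD, n = 3 each). Reads at such repeats can come from near-identical copies. All 6 calls were lost without WT replicate 2 (adjusted p 0.0743 to 0.149 in the quasi-binomial fit).

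The 6 regions at the WT level were picked by the rule as those lowest with W465A alone, and for them the WT libraries spread widely. In Esrrb, a nuclear receptor gene of the naive pluripotency network, the exonic region chr12:86506001-86507000 had 43.0%, 80.1% and 45.9% in WT and 68.0%, 45.8% and 45.9% in the mutant. The groups overlapped fully, and W465A alone had 4.39% ± 4.43 (SD, n = 3). In an intron of Plekha5, chr6:140535001-140536000 had 45.0%, 72.9% and 66.3% in WT and 68.0%, 41.1% and 62.7% in the mutant, against 7.15% ± 2.78 with W465A alone (SD, n = 3). In an intron of the collagen gene Col24a1, chr3:145402001-145403000 had 34.5%, 90.7% and 85.7% in WT and 69.3%, 71.4% and 67.5% in the mutant. The mutant libraries lay close together there, between a low WT replicate 1 and 2 high WT libraries. The regions in Otud4, a deubiquitinase gene, and nearest Aptx and Nup35 had mutant means of 54.7%, 41.2% and 52.0% and WT means of 57.2%, 46.1% and 53.8%. At Aptx the levels pooled over reads lay further apart, by -19.7 points. Without WT replicate 2 the mutant mean was above the WT mean in all 6 regions, by 1.64 to 11.6 points.

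**Figure D2:**
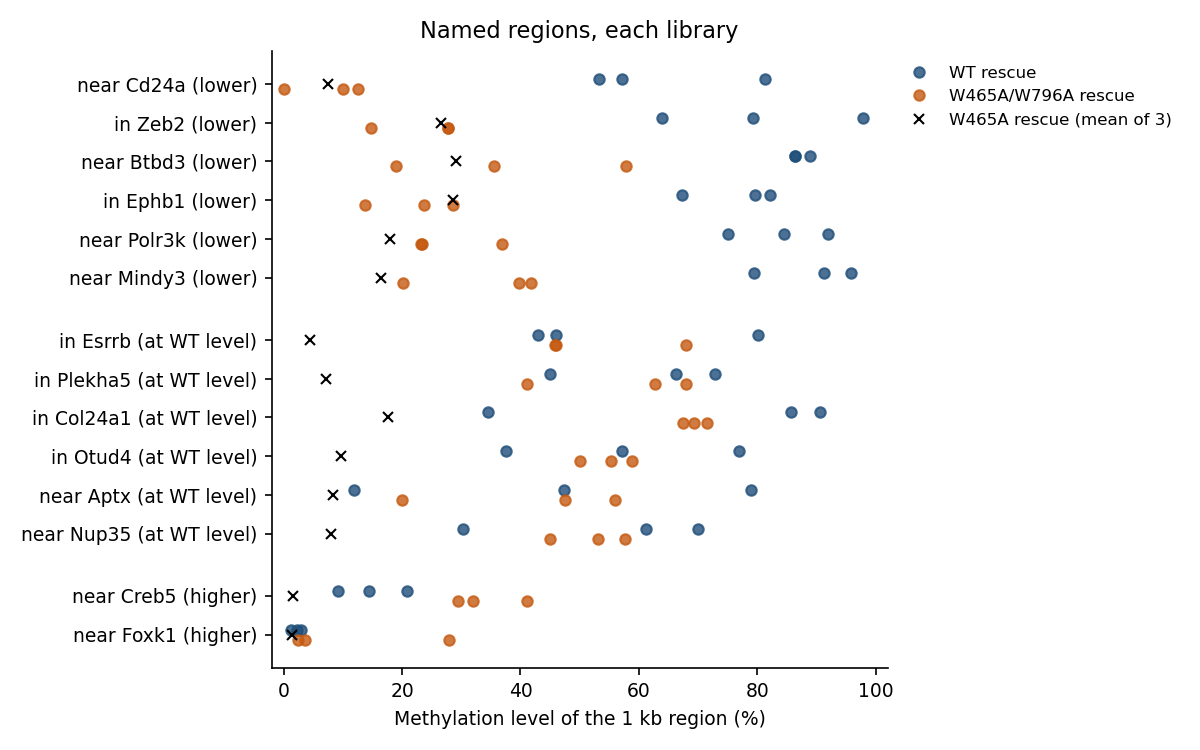
Methylation level (horizontal axis, %) of each named 1 kb region (vertical axis) is drawn with 1 point per library for WT and W465A/W796A, and a cross for the mean of the 3 W465A libraries. In the 6 lower regions all mutant points lie left of all WT points, whereas in the 6 at the WT level the points overlap and the crosses lie at 17.7% or less.

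Both regions that rose were mostly unmethylated in WT. The region chr6:53182001-53183000, nearest Creb5 (a transcription factor gene), had 20.8%, 14.4% and 9.26% in WT and 29.4%, 32.1% and 41.0% in the mutant (adjusted p = 0.0359). Every mutant library was above every WT library, but the call was lost in edgeR (adjusted p = 0.0760), in limma (adjusted p = 0.157) and without WT replicate 2 (adjusted p = 0.216), WT replicate 3 (0.0833), mutant replicate 2 (0.0729) or mutant replicate 3 (0.114). The region chr5:142371001-142372000, nearest Foxk1, had 2.88%, 1.21% and 2.22% in WT and 27.97%, 2.47% and 3.66% in the mutant (adjusted p = 0.0287). That rise was in 1 library, and without mutant replicate 1 the adjusted p was 0.630.

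Classes of CpGs differed in how much of the WT level the double mutant held. The level of each of 45 classes of CpGs (by density, gene feature, repeats, chromosome, distance to the nearest CpG and CpG number per 100 kb) was divided by the library's mean, and 20 classes had mutant and WT libraries that did not overlap. No class could pass a test, since the smallest exact permutation p over 3 against 3 libraries is 0.1 and the smallest adjusted p was 0.225. By distance to the nearest CpG, isolated CpGs held the least. Those whose nearest CpG was over 250 bp away had 60.05%, 76.9% and 77.4% in WT and 50.5%, 44.8% and 42.2% in the mutant, or 64.2% ± 5.996 of WT. Those with a CpG 3 to 5 bp away had 28.9%, 36.6% and 34.0% in WT and 27.2%, 23.4% and 24.0% in the mutant, or 75.1% ± 6.22 of WT. The shares in between went down step by step with distance, except that CpGs directly adjacent to another, 2 bp apart, held 72.7% ± 5.54.

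**Figure D3:**
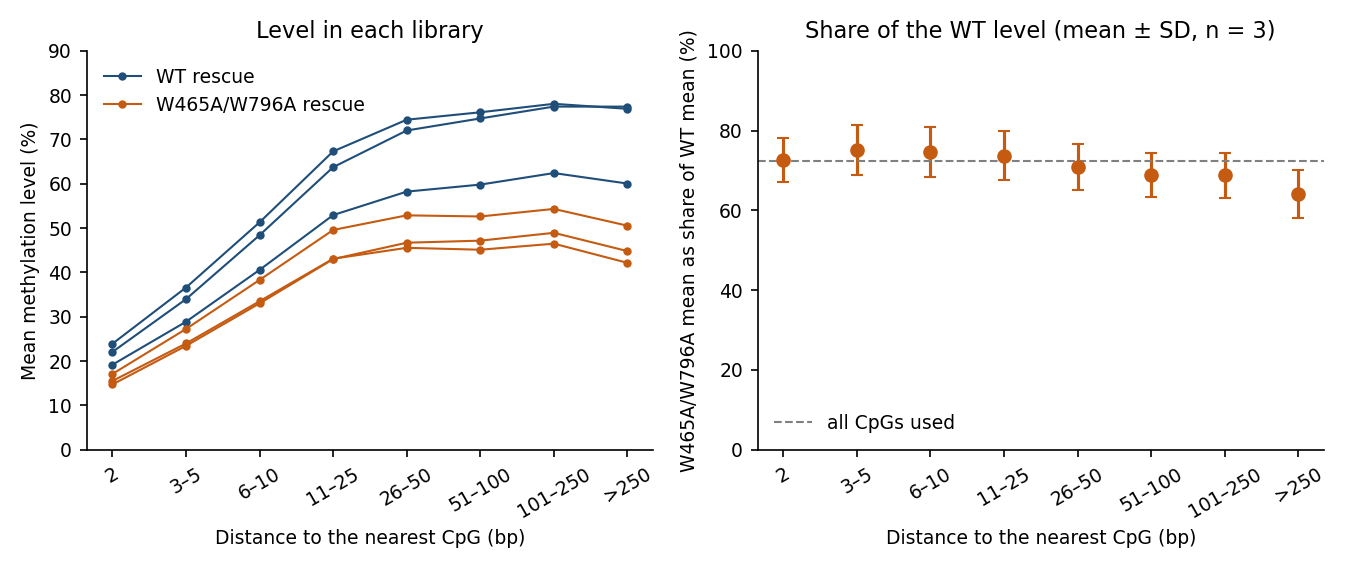
Left, mean methylation level (%) by distance to the nearest CpG (bp), 1 line per library. Right, the mutant mean as a share of the WT mean (%) with the SD of the 3 mutant libraries, and a dashed line at the 72.2% of all CpGs. The share is 75.1% at 3 to 5 bp and 64.2% beyond 250 bp.

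By gene feature, the mutant held 75.5% ± 7.55 of the WT level in exons, 73.8% ± 5.88 in introns and 70.1% ± 5.47 in intergenic sequence. In promoters it held 65.1% ± 5.59, at low levels of 3.43%, 5.41% and 4.71% in WT and 3.23%, 2.78% and 2.82% in the mutant. Relative to the library mean the promoter level differed by -0.13 (log2), but by 0.04 when each read instead of each CpG was counted once, so its direction was not settled. CpGs with over 20 CpGs within 250 bp had 7.05%, 10.9% and 8.10% in WT and 7.11%, 5.30% and 6.13% in the mutant, so there the groups overlapped. The autosomes lay between 71.1% and 73.1% of WT. Chromosome Y, with 690 CpGs, held 62.7% ± 9.54, the lowest share of the 45 classes.

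Over all CpGs, the quintiles of CpG number in the surrounding 100 kb held 68.5% ± 5.89 of WT in the poorest quintile and 72.3% to 74.0% in the other 4. To keep local density alike, CpGs with at most 10 CpGs within 250 bp were divided by the number of reference CpGs in their 100 kb window, a class division chosen after the data had been seen. WT methylated all these classes to a similar degree, from 73.8% ± 10.2 in windows with under 500 CpGs to 75.0% ± 8.54 at 700 to 900 CpGs and 70.1% ± 8.43 at 1600 or more (SD, n = 3). The double mutant had 45.8% ± 4.73 in windows with under 500 CpGs and 53.7% ± 4.07 at 1200 to 1600 CpGs (SD, n = 3). As a share of WT this was 62.0% ± 6.41, 66.0% ± 5.88, 70.2% ± 5.38, 72.7% ± 5.39, 73.9% ± 5.60 and 73.8% ± 5.64 from the poorest to the richest class. Median coverage was 10 to 13 reads in WT and 10 to 12 in the mutant across them. The order held within introns (67.1% under 700 CpGs to 75.0% at 1200 or more) and within intergenic sequence (64.1% to 71.7%). CpGs over 250 bp from the next in windows with under 700 CpGs held 59.4% ± 6.43 of WT, and CpGs 2 to 10 bp from the next in windows with 1200 or more held 76.1% ± 5.52.

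Within a single library, the level in CpG-poor windows (under 500 CpGs) can be divided by the level in CpG-rich windows (1200 to 1600 CpGs). The division cancels a proportional change common to both, and whether the ratio still varies with the library's overall level was not tested. This ratio was 0.985, 1.01 and 1.05 in WT and 0.879, 0.833 and 0.845 in the double mutant, so that the groups did not overlap (1.02 ± 0.0353 against 0.852 ± 0.0239, SD, n = 3 each, exact two-sided permutation p = 0.1, the smallest possible). WT replicate 1, low in its overall level, was here close to WT replicate 2. The ratio was 1.04 ± 0.0137 with W796A alone, 0.730 ± 0.0555 with W465A alone, 0.664 ± 0.0652 with W464A/W465A and 0.716 ± 0.0275 with the triple mutant (SD, n = 3 each). The 3 double mutant libraries lay below every library of WT and W796A and above every library of the other 3 groups. The difference from those 4 groups was not tested.

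**Figure D4:**
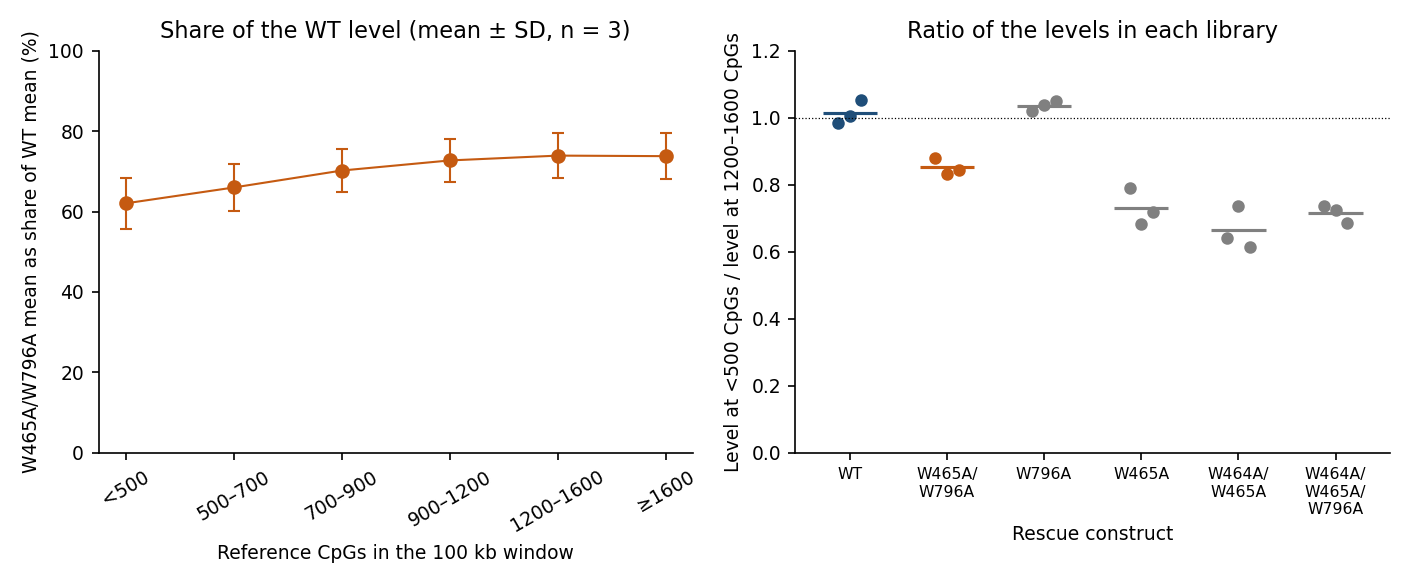
Left, the W465A/W796A mean as a share of the WT mean (%, with the SD of 3 libraries) for CpGs in sparse surroundings, by the number of reference CpGs in the 100 kb window. Right, the level in windows with under 500 CpGs divided by that in windows with 1200 to 1600 CpGs, 1 point per library and a line at the mean of each rescue group. The 3 W465A/W796A points lie between 0.833 and 0.879 and the 3 WT points between 0.985 and 1.05.

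At the scale of 100 kb windows the relative loss passed a test in single windows. With limma on the log2 level of sparse CpGs relative to the library's mean, 541 of 19329 windows were relatively lower in the mutant (2.80%) and 2 were relatively higher (0.0103%), both at an adjusted p under 0.05. The windows were chosen as a unit after the data had been seen. The share relatively lower was 11.7% of 1277 windows with under 500 CpGs, 6.60% at 500 to 700, 1.76% at 700 to 900, 0.386% at 900 to 1200 and 0.0303% at 1200 to 1600. A median of 13 to 111 CpGs was measured per window, fewest in the CpG-poor class. Without WT replicate 2 or 3 there were 0 such windows (3118 and 2282 at an unadjusted limma p under 0.05), without WT replicate 1 there were 73, and with every CpG in place of the sparse ones 0.

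In the windows with the largest relative falls the mutant held from 34.6% to 40.4% of the WT level. The window chr7:33500001-33600000, which holds the secretoglobin gene Scgb2b21, had 41.3%, 75.1% and 73.3% in WT and 24.2%, 22.9% and 18.6% in the mutant (limma adjusted p = 0.0189). The window chr5:6900001-7000000 in Zfp804b, a zinc finger gene, had 66.2%, 84.8% and 89.3% in WT and 33.8%, 29.3% and 26.1% in the mutant (limma adjusted p = 0.00858). The mutant libraries lay below WT replicate 1 in both. The others were chr7:7400001-7500000 at the vomeronasal receptor gene Vmn2r32 (37.4% ± 12.8 of WT), chr14:114600001-114700000 nearest the glypican gene Gpc5 (37.7% ± 9.18) and chr8:98800001-98900000 nearest the cadherin gene Cdh8 (40.4% ± 11.4). Between 10 and 14 CpGs were measured in each of these 5 windows. The relatively higher windows were chr3:31700001-31800000, nearest Kcnmb2, with 55.6%, 64.3% and 67.8% in WT and 62.1%, 52.6% and 55.5% in the mutant, and chr2:59100001-59200000 in Ccdc148 and Pkp4, at 86.3% ± 5.43 of WT.

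Promoters, taken as 500 bp either side of the start of a protein-coding gene, were mostly unmethylated in both groups. Of 13713 with 3 or more measured CpGs, 427 fell (3.11%) and 0 rose (0%). At an unadjusted p under 0.05 of the same quasi-binomial test there were 3140, of which 62 were higher, and limma and edgeR each called 0 higher. In 376 of the called promoters the mutant libraries did not overlap WT. Without WT replicate 2, 5 promoters were called, and without WT replicate 1, 1180 were. The number was 217 with edgeR and 9 with limma. Of 1220 promoters with a WT level of at least 50%, 256 were called lower and 40 (3.28%) were at the WT level, and their mean was 60.05%, 79.4% and 76.4% in WT and 55.5%, 48.0% and 48.4% in the mutant.

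The largest falls at promoters with 5 or more measured CpGs left the mutant between 6.04% and 42.0%. At Fv1, a retroviral restriction gene, the promoter (chr4:147868479-147869479) had 33.0%, 64.5% and 62.0% in WT and 10.8%, 10.3% and 3.73% in the mutant (adjusted p = 0.00338). The promoter of Miip on the other strand overlaps it and had nearly the same levels. At Hoxb3, a body-patterning homeobox gene (chr11:96322826-96323826), levels were 54.0%, 75.8% and 100% in WT and 20%, 24.4% and 35.4% in the mutant (adjusted p = 0.00668). At Slc9a9, an endosomal sodium-proton exchanger gene (chr9:94669409-94670409), they were 23.3%, 57.1% and 61.1% in WT and 5.56%, 7.58% and 5% in the mutant (adjusted p = 0.00900). At each of these promoters the groups did not overlap, and the pooled W796A level was 74.0% at Fv1, 73.2% at Hoxb3 and 69.8% at Slc9a9. Lgals3bp, a secreted galectin-binding protein gene, had 81.9% ± 9.57 in WT and 35.0% ± 4.68 in the mutant, and the zinc finger gene Zfp629 had 45.7% ± 17.9 and 8.70% ± 2.94 (SD, n = 3 each). The skin gene Prr9, the testis actin-related gene Actrt2, the X-linked Tceanc and Gm28230, an annotated gene in the Hoxd cluster, held 46.0% to 49.2% of WT. At Gm28230 alone among the 10, a mutant library (48.3%) lay above a WT library (42.3%). All 10 calls were lost without WT replicate 2 and in limma.

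The 10 promoters at the WT level were picked as those lowest with W465A alone, which held 7.69% to 26.8% there. The nuclear receptor gene Nr0b2 (chr4:133552876-133553876) had 27.8%, 62.2% and 41.0% in WT and 42.3%, 48.3% and 37.2% in the mutant. The tubulin glycylase gene Ttll3 (chr6:113388760-113389760) had 46.7%, 78.2% and 34.8% in WT and 65.8%, 42.6% and 48.3% in the mutant. The kinase gene Pik3cg (chr12:32208159-32209159) had 8.33%, 70.7% and 36.7% in WT and 57.0%, 33.3% and 36.7% in the mutant. At all 3 the WT libraries spanned more than the mutant libraries, and they enclosed them. Omp, the olfactory marker gene, had 47.3% ± 27.2 in WT and 44.6% ± 23.1 in the mutant, and Aurkc, a meiotic Aurora kinase gene, had 53.3% ± 28.4 and 51.2% ± 19.2 (SD, n = 3 each). Mettl7a3, Rasip1, Gm36210, Fam240a and Adam1b held 89.9% to 100.1% of the WT mean.

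Promoters of germline genes, which are normally silenced by methylation in other cells, had the highest median WT level of the lists, at 55.2%. Of 37 genes 29 were covered, 28 with a WT level of at least 20%, and 2 of the 29 (6.90%) fell, against 3.11% of all promoters. The median WT level of all promoters was 0.65%, so most of them could not fall by 10 points. Among the 1220 promoters with a WT level of at least 50%, 256 were called lower, a larger share than among the germline promoters. The mean level of the germline promoters was 41.9%, 60.6% and 47.1% in WT and 41.0%, 32.9% and 39.3% in the mutant. All 3 mutant libraries were below all 3 WT libraries, replicate 1 of each group being closest. Dazl, an RNA-binding protein gene of germ cells, had 64.2%, 85.2% and 78.2% in WT and 57.2%, 47.4% and 54.6% in the mutant (adjusted p = 0.0471). Dpep3, a testis dipeptidase gene, had 81.8%, 88.9% and 93.4% in WT and 63.9%, 65.7% and 59.7% in the mutant (adjusted p = 0.0352). In 9 of the 28 promoters, Dazl and Dpep3 among them, all mutant libraries were below all WT libraries. The same held in 43.6% of all 1 kb regions, and the share over all promoters is not given here. In 4 of the 28 (Sycp1, Zp3, Tex15 and Tex11) the mutant mean was not lower. Zp3, a zona pellucida gene, had 1.22%, 42.3% and 7.76% in WT and 54.3%, 3.74% and 23.3% in the mutant, so its libraries varied within both groups.

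Of the imprinted genes 19 of 30 promoters were covered and 2 fell (10.5%, against 3.11% of all promoters). Their median WT level was 1.62%, against 0.65% over all promoters, and the difference in the share of calls was not tested. Grb10, a growth factor receptor adaptor gene, had 37.5%, 63.6% and 72.7% in WT and 33.3%, 31.6% and 31.6% in the mutant (adjusted p = 0.0447). Nap1l5 had 0.676%, 12.5% and 16.3% in WT and 0.936%, 1.27% and 0.314% in the mutant (adjusted p = 0.0194), and since its WT level is below the 20% set for naming, it is named after its values were seen. Nnat, a gene expressed from the paternal copy, had 38.3%, 13.4% and 13.6% in WT and 0.211%, 0.617% and 1.39% in the mutant and missed the threshold (adjusted p = 0.0726). Gnas overlapped fully, with 15.4%, 34.9% and 5.56% in WT and 29.0%, 10.6% and 15.2% in the mutant.

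Among neuronal genes 4 of 15 covered promoters fell (26.7%, against 3.11% of all). Nefm, a neurofilament gene, had 13.3%, 16.7% and 38.1% in WT and 0.791%, 1.16% and 0.962% in the mutant over 49 CpGs (adjusted p = 0.0109). Rbfox3, the NeuN splicing factor gene, had 77.4%, 79.9% and 81.6% in WT and 51.8%, 44.9% and 46.2% in the mutant (adjusted p = 0.0204). Kcnmb2, a potassium channel subunit gene, had 39.2% ± 7.86 in WT and 7.05% ± 3.73 in the mutant (SD, n = 3 each). Gria1, a glutamate receptor subunit gene, had 77.5% ± 9.38 in WT and 58.0% ± 11.9 in the mutant and did not pass (SD, n = 3 each). Of 14 covered pluripotency promoters 1 fell (7.14%), that of the Nodal antagonist Lefty1, with 13.6%, 35.96% and 26.1% in WT and 10.3%, 1.45% and 6.10% in the mutant (adjusted p = 0.0301). Of 9 trophoblast promoters 1 fell (11.1%), the keratin gene Krt8 (6.67%, 27.5% and 28.3% in WT and 7.14%, 1.61% and 6.76% in the mutant, with overlap, adjusted p = 0.0335). Elf5, a trophoblast transcription factor gene known to be silenced by methylation in ES cells, had 40.0%, 83.7% and 76.5% in WT and 74.1%, 74.4% and 64.7% in the mutant, so that WT replicates 2 and 3 were above all mutant libraries and WT replicate 1 was below them. None of the 32 covered promoters of developmental regulators or the 14 of methylation enzymes passed the test. The highest in WT, Gata4 and Dnmt3l, had 70.0% ± 7.64 and 83.5% ± 9.42 in WT and 37.6% ± 6.03 and 55.7% ± 11.9 in the mutant (SD, n = 3 each). Without WT replicate 2, 5 of all 13713 promoters were called, and the lists together kept 1 call, a neuronal one. Without WT replicate 1, 1180 of all 13713 promoters were called. Among them were 11 germline, 2 imprinted, 5 neuronal, 1 pluripotency, 2 trophoblast, 2 developmental regulator and 1 methylation enzyme promoters. These lists were chosen with earlier results of these data known, so their counts are descriptions beside the share of all promoters.

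Over whole genes and their surroundings, counted by 1 kb regions, the Hox genes kept the smallest share of the WT level among the families and lists. The 173 regions of 39 Hox genes, which pattern the body axis, averaged 14.4%, 23.1% and 25.04% in WT and 8.49%, 10.1% and 8.83% in the mutant, or 43.8% ± 4.03 of WT, against 73.3% ± 5.77 over all 239901 regions. All mutant libraries were below all WT libraries, and 53 of the regions fell (30.6%, against 27.6% of all regions). Of the 27 with a WT level of at least 50%, 0 were at the WT level, against 4.999% of all such regions. With only 27 regions these shares cannot be told apart. In points the difference was -11.7, smaller than the -17.4 of all regions, and the WT mean was 20.8% against 65.2%. Without WT replicate 1 the share was 37.9%, and 69 of the 173 Hox regions were called, against 114211 of all 239901 regions. Without WT replicate 3 the share was 48.7%, and 38 were called, against 23792 of all regions. Without WT replicate 2, 0 were called, against 8 of all regions. The 4 clusters had similar shares, of 42.6% ± 2.96 for Hoxa on chromosome 6, 42.0% ± 3.73 for Hoxb on chromosome 11, 48.1% ± 5.58 for Hoxc on chromosome 15 and 45.5% ± 8.80 for Hoxd on chromosome 2. The mean over the Hox regions was 26.5% with W796A alone and 7.96% with W465A alone. In regions with over 20 CpGs within 250 bp, the share was 37.9% for Hox genes and 40.7% for developmental regulators, against 71.8% over all such regions. Levels there were low, at 7.44% and 7.55% in WT and 2.82% and 3.07% in the mutant, against 16.3% and 11.7% over all such regions. Protocadherin, trophoblast and imprinted genes held 46.7%, 47.4% and 53.4% in such regions, and the other families and lists with a value held 62.9% to 83.4%. Of all 1 kb regions with over 20 CpGs within 250 bp, those at 5% to 20% with W796A averaged 9.70% in WT. These held 61.8% ± 11.4 of WT, below the 71.8% of all such regions.

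Developmental regulators, clustered protocadherins and chemosensory receptors were also under the share of all regions. Developmental regulators as a list held 60.1% ± 2.85 of WT (23.0%, 33.0% and 34.6% in WT and 18.6%, 18.7% and 17.2% in the mutant), with 83 of 329 regions called lower, or 25.2%, below the share of all regions. Relative to all regions, the libraries of this list overlapped (exact permutation p = 0.2). The clustered protocadherin genes, which encode neuronal adhesion proteins, held 52.7% ± 5.40, with 65 of 129 regions called lower (50.4%). Olfactory receptor genes held 67.04% ± 5.89 and vomeronasal receptor genes 66.8% ± 6.11, with 90 of 204 (44.1%) and 46 of 93 (49.5%) regions called lower. Without WT replicate 2, 1 protocadherin region and 0 of the developmental regulator, olfactory and vomeronasal regions were called, and without WT replicate 1, 82, 125, 131 and 65 were. Over all 239901 regions, 8 were called without WT replicate 2 and 114211 without WT replicate 1. Receptor families hold near-identical copies, so some of their reads may be placed at the wrong copy. Of the 100 kb windows at olfactory receptor genes 26 of 216 were relatively lower (12.04%), and of those at vomeronasal receptor genes 21 of 121 (17.4%), against 2.8% of all windows. The regions of these genes lay in CpG-poor surroundings, with a median of 787 and 602 CpGs per 100 kb, against 1163 over all regions. Of all windows, 11.7% were relatively lower under 500 CpGs, 6.60% at 500 to 700 and 1.76% at 700 to 900. Without WT replicate 2 or 3, 0 of all 19329 windows were called.

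Pluripotency genes lay at the other end. Their 142 regions averaged 34.2%, 51.3% and 36.7% in WT and 38.9%, 26.6% and 31.4% in the mutant, or 79.3% ± 15.3 of WT, and the groups overlapped. Of these regions 18 were called lower (12.7%), and of the 64 with a WT level of at least 50%, 12 were at the WT level (18.8%), against 4.999% of all. With 10 reads per CpG the share called lower was 3.57%, against 21.1% of all regions at that setting. The genes of methylation enzymes held 78.2% ± 8.08, with overlapping libraries, the ribosomal protein genes 77.1% ± 9.42 and the zinc finger Zfp genes 74.9% ± 6.91. Imprinted, germline, keratin, neuronal and trophoblast genes held between 70.2% and 72.6%. Most of these intervals overlap, so the order of neighbouring groups is not resolved by 3 libraries.

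**Figure D5:**
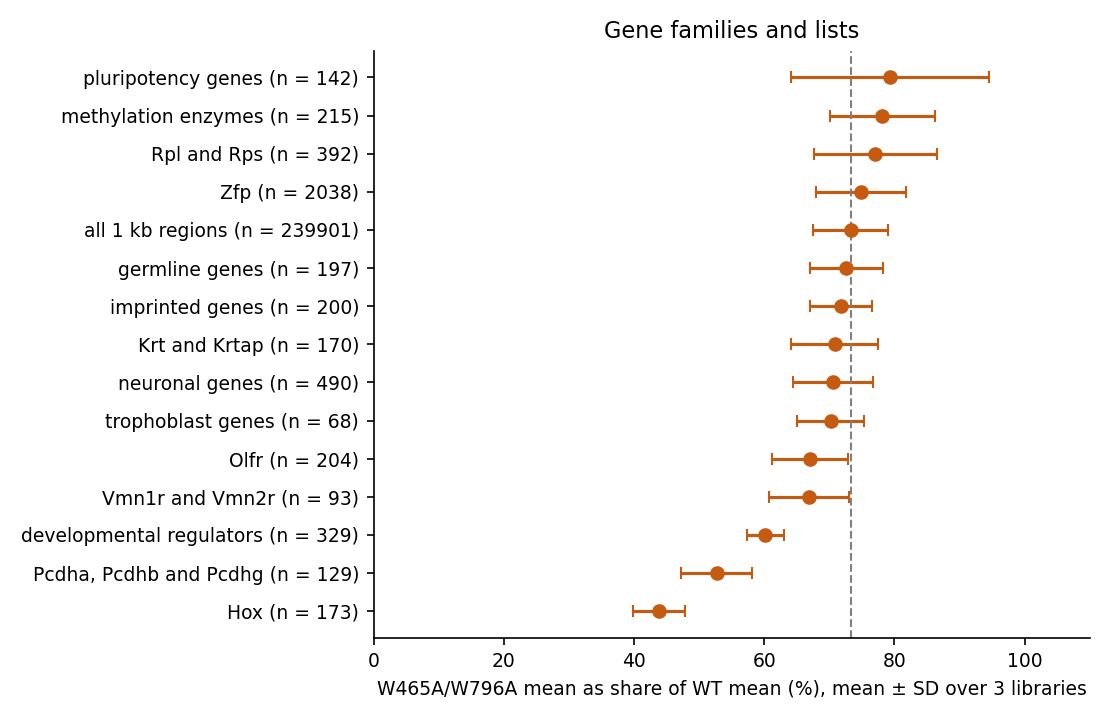
The W465A/W796A mean level as a share of the WT mean (horizontal axis, %) is drawn for each gene family or list (vertical axis, with its number of 1 kb regions), with the SD of the 3 mutant libraries. The dashed line marks the 73.3% of all regions, and Hox genes at 43.8% lie furthest below it.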

How the data were processed

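CpG methylation was measured by eRRBS in 18 libraries of 6 rescue groups, and the 6 libraries of WT and W465A/W796A were compared, grouped by their titles. The deposited values are counts of methylated reads and of all reads per CpG, made by the authors from aligned reads. The submitters' processing notes name cutadapt 1.2.1, Bismark 0.18.1, Bowtie 1.2 and the builds mm10 and GRCm38. Deduplication, methylation-call filters and strand merging are not given in the sources used here, and PCR copies counted as reads would make counting error look smaller than it is. CpG positions of the table were checked against the GRCm38 reference and matched on all chromosomes. No pair of libraries had more than 0.328% identical region counts, so each counted as 1 sample.

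A level is methylated reads over all reads, at CpGs with at least 5 reads in each of the 6 libraries. Regions of 1 kb and promoters (500 bp either side of the start) needed 3 such CpGs. A quasi-binomial logistic regression on the methylated and unmethylated counts used all 18 libraries, with the dispersion squeezed across regions, and p-values were adjusted by Benjamini-Hochberg over all regions or promoters. Relative levels were fitted with limma 3.58.1 (R 4.3.3) on log2 of (methylated + 0.5)/(reads + 1) over the library mean. Other steps used Python 3.11.15, numpy 2.4.6, scipy 1.17.1 and pandas 2.3.3, and edgeR 4.0.16 was an alternative. Two-group values over libraries were tested by exact permutation.

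Named were the 6 lower regions with the largest pooled difference and no overlap, and the 6 at the WT level (pooled WT level at least 60%) lowest with W465A alone, both with 5 CpGs and 30 reads per library. Also named were 10 lower promoters with the largest difference and 10 at the WT level lowest with W465A alone (5 CpGs), every region that rose, and list members with WT of at least 20%, of which the text gives some. Chromosome 18 is counted and its regions are not named, and 1 list member is counted and not reported here. The groups, members and lists were chosen with earlier results of these data known. The 100 kb windows, classes of CpG number and mean levels of families were chosen after seeing the data.

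On simulated data, the region test recovered 1 of 100 regions lowered by 20 points and 7 of 100 by 40 points, with 0 of 239701 unchanged ones called. Only these few regions were lowered in the simulation, whereas 96.4% were lower in the data. An adjusted p is harder to reach when few regions change, so this recovery cannot be carried over to the data. The window test recovered 44 of 100 windows changed by -0.5 log2 and 87 of 100 changed by -1.0, and called 3 of 19129 unchanged ones. All simulated windows were given the same fixed spread, which was not estimated from the data. These window results therefore cannot be carried over to the data either. Alternatives changed coverage, region size, thresholds, the model, the replicate block and the libraries used.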

Additional observations from a re-analysis of the deposited data

How the results depend on the processing

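The difference of mean levels kept its direction under all alternatives run, but counts of calls moved widely. Some small differences changed sign: the relative level of promoters (-0.13, log2) was 0.04 with each read counted once, that of CpGs with over 20 neighbours within 250 bp (-0.01) was 0.10 without WT replicate 2, and the 6 named regions at the WT level (-4.87 to -0.89 points) were 1.64 to 11.6 points higher without it. The difference of mean levels ranged from -18.4 to -12.3 points when 1 library was left out. Of the relative levels of CpG classes, that of CpGs with 1 to 5 CpGs within 250 bp was -0.051 (log2) with 10 reads per CpG and that of CpGs 3 to 5 bp from the next was 0.027, and their groups then overlapped. The 66299 called regions became 38697 without squeezing, 5192 with an offset of the library's global level, 9246 with limma, 13044 with 10 reads, 113613 with 1 CpG per region, 30402 with 5 CpGs, and 8 to 114211 with 1 library left out. With the 6 libraries alone 55194 of the 66299 calls were shared, and with edgeR 50240. The 4.999% of regions at the WT level became 12.7% within 10 points, 2.37% with WT of at least 80%, and 2.30% to 9.46% with 1 library left out. The 427 promoters became 4 without squeezing, 9 with limma, 217 with edgeR, 149 with 10 reads, 1027 with 1000 bp either side, and 5 to 1180 with 1 library left out. The 541 windows became 0 with every CpG, 12 with 10 reads, and 0 to 680 with 1 library left out. Leaving out a library also leaves fewer samples, and the stricter filters leave fewer regions. The cause of these changes in counts was not tested. The simulated 40-point changes, made in few regions, were mostly missed, and whether depth limits that was not tested.

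The labels do not say whether the replicate numbers pair the samples. Deviations from the group means of same-numbered WT and mutant libraries correlated at -0.0831, -0.133 and -0.0467 for numbers 1 to 3. For differently numbered libraries the correlations were -0.0431 to 0.143. Whether same-numbered libraries share a batch was not tested. With the replicate block the difference of means was -14.7 points (exact sign-flip p = 0.25, the smallest possible), 58 regions were called in the 6 libraries and 40607 in the 18 libraries, and the numbers of promoters, relative regions and windows were 331, 0 and 398.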
